A study of Homo sapiens with 20 samples.

Results

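Immediate-early genes are transcribed within minutes of a signal from factors that the cell already holds, without prior protein synthesis. Ligation of the T cell receptor is a classic signal of this kind, and FOS, EGR1 and NR4A1 are the members of the class studied most. The expression of 5 less studied genes grouped with this class was examined here in Jurkat T lymphoblasts. They are IER2, IER3 and IER5, named as immediate early response genes, CSRNP1, which encodes a cysteine- and serine-rich nuclear protein, and SCG2, which encodes the granin secretogranin II. The earliest libraries were from 1 h, so whether each gene responds within minutes was not tested. In WT cells SCG2 was highest at 3 h, and IER5 varied little with activation. The 5 genes, of 60719 in the deposited table, were selected on their measured levels across line, activation and time, so the values of those 3 contrasts are given as a description without a test.

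The libraries came from WT Jurkat cells, which are an established human T cell leukemia line, and from the somatic mutant JinB8 (CD47-), which was derived from Jurkat and lacks surface CD47. CD47 is a signaling receptor for thrombospondin-1 (TSP1), a secreted glycoprotein. Each line gave 10 libraries: 1 from untreated cells at 1 h, and 1 at each of 1, 3 and 6 h for 3 treatments, namely plates coated with antibodies to CD3 and CD28 (CD3+CD28), the same plates plus TSP1 (CD3+CD28+TSP1), and TSP1 alone. All cells were in serum-free HITES medium, TSP1 was used at 1 μg/mL and anti-CD28 at 4 μg/mL, and the sources differ in the concentration of anti-CD3. Every condition was sequenced once, so the spread behind every fitted contrast was estimated from libraries of different conditions and shared by both lines, and CD47 status cannot be told apart from any other difference between these 2 lines.

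Library totals ran from 16107921 to 31737616 counts. Levels are given as CPM, counts relative to the library total after TMM scaling, and 16327 genes passed the low-count filter, all 5 genes among them. CD47 mRNA was at 253 to 372 CPM in WT and at 124 to 165 CPM in CD47- cells, so the mutant line kept part of the transcript. All 11 T cell markers reached 1 CPM in both lines, with summed levels of 1443 to 1997 CPM in WT and 1707 to 2462 CPM in CD47- cells. Markers of myeloid cells summed to at most 1.71 CPM, of epithelial cells to at most 3.43 CPM and of mesenchymal cells to at most 8.78 CPM. Of the B cell markers reported here, MS4A1 was at most at 0.163 CPM, whereas CD79A was at 33.8 to 53.9 CPM in WT and 4.14 to 9.95 CPM in CD47- cells. The shallowest library, CD47- CD3+CD28+TSP1 at 3 h, also had the lowest median correlation with its own line (0.968) and the highest mitochondrial share (0.663%). In bulk RNA, fewer cells that express a gene and less RNA per cell cannot be told apart.

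The RefSeq promoter table (GRCh38.p14) held windows for 3 of the 5 genes, IER2, IER5 and CSRNP1. The 250 bases before the annotated start are shown for CSRNP1, at chr3:39153592-39153841 on the minus strand, and for IER5, at chr1:181088450-181088699 on the plus strand. Among these 3 genes, they differed most in how they varied with activation in WT cells. For IER2, 30 bases at chr19:13150259-13150288 on the plus strand are shown around its only match. Capitals mark matches to 2 motifs: the half-site of the cAMP response element (TGACG, or CGTCA on the other strand) and the NF-kB consensus.
CSRNP1: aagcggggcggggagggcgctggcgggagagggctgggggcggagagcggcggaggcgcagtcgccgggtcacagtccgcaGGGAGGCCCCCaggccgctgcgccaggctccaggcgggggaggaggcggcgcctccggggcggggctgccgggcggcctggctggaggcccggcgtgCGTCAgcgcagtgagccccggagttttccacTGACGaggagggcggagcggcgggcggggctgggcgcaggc
IER5: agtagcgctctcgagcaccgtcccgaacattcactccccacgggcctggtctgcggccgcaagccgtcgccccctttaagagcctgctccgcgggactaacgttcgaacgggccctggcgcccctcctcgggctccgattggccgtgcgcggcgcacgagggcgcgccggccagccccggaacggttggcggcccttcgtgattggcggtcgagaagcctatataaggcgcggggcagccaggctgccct
IER2: cacccccgccccCGTCAcgccaccatcgag

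In the CSRNP1 window, the half-sites lay at bases -72 to -68 and -41 to -37 from the start, and the NF-kB consensus matched at -169 to -160 and, overlapping it, at -168 to -159. The IER2 half-site lay at -140 to -136. The IER5 window held none of the 7 motifs searched on both strands, which were these 2, the full element TGACGTCA, the AP-1 site TGANTCA, the EGR site GCGTGGGCG, the CSRNP1 site AGAGTG and the CArG box. Among 35116 windows of equal length, 21.2% held the half-site, 9.96% the NF-kB consensus, 1.65% the full element, 6.57% the AP-1 site, 0.72% the EGR site, 12.3% the CSRNP1 site and 1.16% the CArG box. The windows were GC-rich, at 80.4% for CSRNP1, 70.4% for IER5 and 69.6% for IER2. A second CSRNP1 window, at chr3:39154642-39154891, held no match.

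The genes are small. In GENCODE version 44 (GRCh38), IER2 lies at chr19:13150411-13154911 on the plus strand, IER3 at chr6:30743199-30744548 on the minus strand, IER5 at chr1:181088700-181092900 on the plus strand as 1 exon, CSRNP1 at chr3:39141855-39154562 on the minus strand and SCG2 at chr2:223596940-223602361 on the minus strand. Annotated genes on the opposite strand overlap IER2, IER3 and CSRNP1, 2 at each. The strand setting of the counting is not given in the sources used here, so reads of these pairs may not be separable. The 6 overlapping genes had between 0 and 22 counts in any library, against at least 327 counts for the 3 genes they overlap.

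IER2 encodes a nuclear protein that is induced early by growth factors and other signals. In WT cells it was highest at 1 h and lower at each later time. It stood at 63.3 CPM in untreated WT cells at 1 h. With TSP1 alone it was at 85.5, 38.5 and 29.9 CPM at 1, 3 and 6 h, with CD3+CD28 at 114, 83.4 and 37.0 CPM, and with CD3+CD28+TSP1 at 188, 71.4 and 41.8 CPM. The activated WT libraries were above the TSP1 library of the same time at all 3 times, and by 6 h the 3 treatments lay within 1.40-fold of each other.

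In CD47- cells IER2 was at 95.04 CPM untreated and at 76.6, 60.0 and 38.9 CPM with TSP1 alone at 1, 3 and 6 h. It was at 80.6, 99.6 and 42.2 CPM with CD3+CD28 and at 89.6, 71.6 and 45.8 CPM with CD3+CD28+TSP1. The 4 libraries at 1 h spanned only 1.24-fold in CD47- cells, against 2.98-fold in WT cells, and the untreated library was the highest of the 4. In 7 of 10 matched pairs IER2 was higher in CD47- than in WT cells, with a mean log2 difference of 0.05 ± 0.52 (SD, n = 10 pairs), a difference within the spread of the pairs.

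CSRNP1 is a nuclear protein that binds AGAGTG sites, and of the 5 genes it showed the widest decline with time in WT cells. It was at 68.0 CPM in untreated WT cells. With TSP1 alone it was at 72.6, 32.9 and 13.1 CPM at 1, 3 and 6 h, with CD3+CD28 at 146, 100.1 and 16.04 CPM, and with CD3+CD28+TSP1 at 156, 105 and 18.4 CPM. Both activated libraries were above TSP1 alone at 1 and 3 h by 2.01- to 3.17-fold, and all 3 WT libraries at 6 h were below every WT library at 1 and 3 h.

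In CD47- cells CSRNP1 was at 40.4 CPM untreated, at 38.0, 33.8 and 23.6 CPM with TSP1 alone, at 43.2, 44.3 and 24.2 CPM with CD3+CD28, and at 46.4, 37.2 and 26.4 CPM with CD3+CD28+TSP1. The highest of these, 46.4 CPM, was below every WT library at 1 h. Between the lines the direction turned with time: CSRNP1 was lower in CD47- cells in all 4 pairs at 1 h, by log2 differences down to -1.75, and higher in all 3 pairs at 6 h, by up to 0.83. Its mean log2 difference was accordingly -0.59 ± 1.00 (SD, n = 10 pairs).

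IER3, also known as IEX-1, encodes a regulator of cell survival that responds to NF-kB and ERK signaling. In activated WT cells it was highest at 3 h, not at 1 h. It was at 59.0 CPM in untreated WT cells and at 77.2, 70.5 and 20.2 CPM with TSP1 alone. With CD3+CD28 it was at 116, 275 and 27.2 CPM at 1, 3 and 6 h, and with CD3+CD28+TSP1 at 156, 230 and 48.8 CPM. The difference between activated cells and TSP1 alone was largest at 3 h, at 3.88-fold for CD3+CD28 and 3.24-fold for CD3+CD28+TSP1.

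In CD47- cells IER3 was at 70.9 CPM untreated and at 50.2, 67.1 and 28.4 CPM with TSP1 alone. With CD3+CD28 it was at 69.5, 111 and 30.7 CPM, and with CD3+CD28+TSP1 at 71.3, 57.4 and 27.6 CPM. The CD3+CD28 library at 3 h stood above the other 9 CD47- libraries, and the CD3+CD28+TSP1 library of the same time, the shallowest of the series, was below TSP1 alone. IER3 was lower in CD47- cells in 7 of 10 pairs, and the 6 pairs of activated cells ranged from -1.99 to 0.17 on the log2 scale.

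SCG2 is a component of the dense-core vesicles of neuroendocrine cells and the precursor of secretoneurin. Its course in WT cells was a peak at 3 h in every treatment. In untreated WT cells it was at 6.12 CPM, with TSP1 alone at 4.54, 17.0 and 5.16 CPM at 1, 3 and 6 h, with CD3+CD28 at 13.1, 70.68 and 9.80 CPM, and with CD3+CD28+TSP1 at 10.2, 70.65 and 16.4 CPM. Against 1 h, the 3 h level was 3.48-fold with TSP1 alone, 5.22-fold with CD3+CD28 and 6.66-fold with CD3+CD28+TSP1.

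In CD47- cells SCG2 was at 10.1 CPM untreated, at 8.40, 18.9 and 14.3 CPM with TSP1 alone, at 9.83, 22.0 and 14.9 CPM with CD3+CD28 and at 10.01, 13.8 and 15.4 CPM with CD3+CD28+TSP1. The lines thus parted most at 3 h in activated cells, where the pairs stood at log2 differences of -1.66 and -2.31, while with TSP1 alone at 6 h SCG2 was higher in CD47- cells by 1.39. It was higher in CD47- cells in 5 of 10 pairs. Of 5 neuroendocrine markers, CHGA was at most at 0.134 CPM and INSM1 at most at 0.0477 CPM. SYP was at 3.46 to 7.07 CPM in WT and 2.12 to 3.94 CPM in CD47- cells, and CHGB at 0.811 to 3.06 and 1.34 to 4.27 CPM, so both were detected in every library. ENO2, which other cell types also express, was at 73.8 to 268 CPM and held most of the list's summed level of 82.8 to 220 CPM in WT and 122 to 272 CPM in CD47- cells.

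IER5, a nuclear protein known to modulate the heat shock factor HSF1, differed from the other 4 genes in that its level followed the line and varied little with activation. In WT cells it was at 61.1 CPM untreated, at 74.1, 61.2 and 50.9 CPM with TSP1 alone, at 71.8, 62.2 and 50.1 CPM with CD3+CD28, and at 88.9, 58.1 and 54.7 CPM with CD3+CD28+TSP1. In CD47- cells it was at 159 CPM untreated, at 142, 116 and 129 CPM with TSP1 alone, at 155, 129 and 128 CPM with CD3+CD28, and at 150, 107 and 135 CPM with CD3+CD28+TSP1. The lowest CD47- library was at 107 CPM and the highest WT library at 88.9 CPM. The share of all tested genes that separate the lines in this way, or in every matched pair, was not counted.

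**Figure D1:**
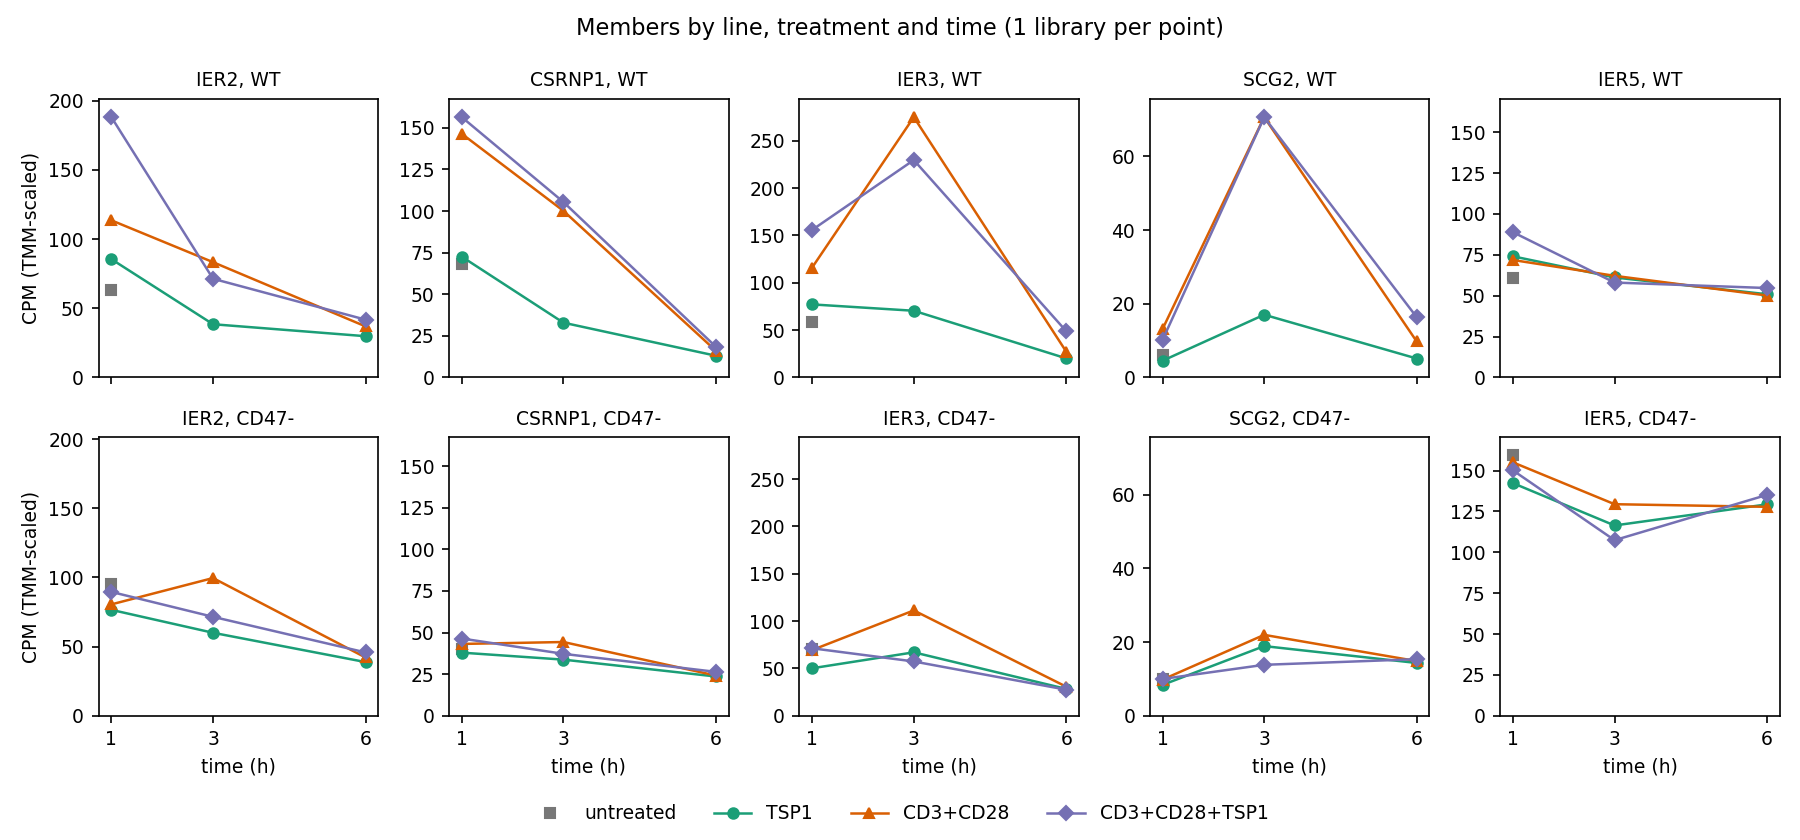
Level of each gene in CPM (vertical axis, linear, the same scale in both lines for a gene) against time in hours, with 1 library per point, for WT (top row) and CD47- cells (bottom row), with points of a treatment joined by lines. In WT cells IER2 and CSRNP1 are highest at 1 h (188 and 156 CPM) and IER3 and SCG2 at 3 h (275 and 70.7 CPM), the courses are flatter in CD47- cells, and IER5 is higher in CD47- cells throughout.

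In all 10 matched pairs IER5 was the higher in CD47- cells, by a mean log2 difference of 1.10 ± 0.23 (SD, n = 10), or 2.14-fold, with a range of 0.75 to 1.38. In the edgeR fit of the lines over all 20 libraries, its log2 fold change was 1.10 (SE 0.10). The fitted values of the other genes were -1.03 (SE 0.38) for CSRNP1, -0.88 (SE 0.39) for IER3, -0.70 (SE 0.45) for SCG2 and -0.10 (SE 0.28) for IER2, with SEs that include the differences between treatments and times. With each library left out in turn, the value of SCG2 ranged from -0.82 to -0.29 and that of IER2 from -0.20 to 0.17. With a block for the 10 pairs matched by treatment and time, the fitted values were 1.11 for IER5, -0.62 for CSRNP1, -0.58 for IER3, -0.09 for SCG2 and 0.05 for IER2. In the fit without the block, 19.8% of the 16327 tested genes were called higher and 20.6% lower in CD47- cells at an adjusted p under 0.05, and with the block 54.9% were called in either direction, so a difference between these lines was common.

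**Figure D2:**
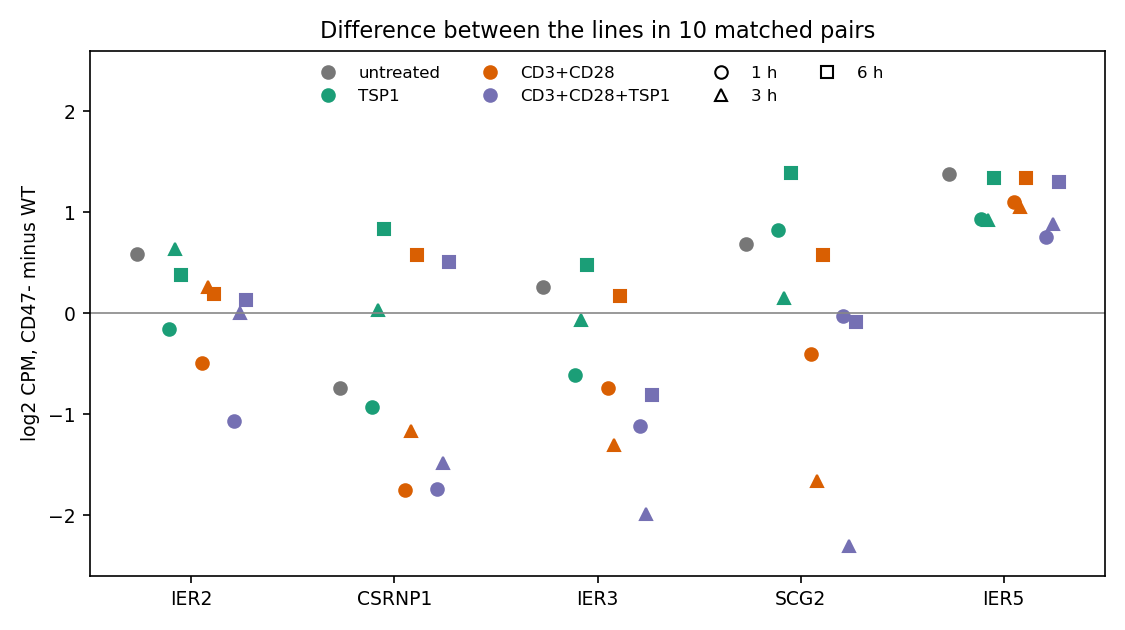
Log2 difference in CPM between CD47- and WT cells (vertical axis) for each gene in the 10 pairs of libraries matched by treatment (color) and time (symbol). The 10 pairs of IER5 lie between 0.75 and 1.38, whereas the pairs of CSRNP1 lie below 0 at 1 h and above 0 at 6 h, and those of SCG2 reach from -2.31 to 1.39.

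Levels of different genes were compared only on a per-length scale, on which isoform counts were divided by isoform length and scaled to the same total in every library. In WT cells the mean per-length level over the 10 libraries was 76.9 ± 61.1 (SD) for IER3, 29.98 ± 16.9 for IER2, 20.1 ± 13.4 for CSRNP1, 13.6 ± 2.46 for IER5 and 8.27 ± 9.46 for SCG2. In CD47- cells the order was IER3 at 51.6 ± 24.9, IER2 at 34.9 ± 13.0, IER5 at 34.5 ± 5.10, CSRNP1 at 12.3 ± 3.73 and SCG2 at 6.12 ± 2.14. These SDs span treatments and times, and all genes were measured in the same libraries. In WT cells each gene lay within the larger SD of its neighbor in this order, and in CD47- cells IER3, IER2 and IER5 did so. Within every single library, however, IER3 was above IER2. The levels were 203.8 against 35.06 in WT CD3+CD28 at 3 h and 22.11 against 20.87 in CD47- CD3+CD28+TSP1 at 6 h. IER5 stood above CSRNP1, and CSRNP1 above SCG2, by more than either SD in CD47- cells.

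The contrast of CD3+CD28+TSP1 with TSP1 alone compares cells with and without the antibodies, where both arms received TSP1 and both hold 1, 3 and 6 h. In WT cells the mean log2 difference over the 3 times was 0.83 ± 0.33 (SD, n = 3) for IER2, 1.082 ± 0.59 for CSRNP1, 1.32 ± 0.35 for IER3 and 1.56 ± 0.47 for SCG2, and each of these was positive at all 3 times. That corresponds to between 1.78-fold and 2.95-fold. For IER5 it was 0.10 ± 0.17, with 2 of 3 times positive.

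In CD47- cells the same difference was 0.24 ± 0.01 for IER2, 0.19 ± 0.08 for CSRNP1, 0.08 ± 0.38 for IER3, -0.03 ± 0.36 for SCG2 and 0.01 ± 0.11 for IER5 (SD, n = 3 times). IER2 and CSRNP1 were thus higher with the antibodies at all 3 times in CD47- cells as well, but by only 1.179-fold and 1.145-fold. IER3 was higher at 1 of 3 times and SCG2 at 2 of 3. With CD3+CD28 in place of CD3+CD28+TSP1, the mean differences in CD47- cells were 0.30 ± 0.37 for IER2, 0.20 ± 0.18 for CSRNP1, 0.43 ± 0.31 for IER3 and 0.16 ± 0.09 for SCG2, all positive at 3 of 3 times.

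**Figure D3:**
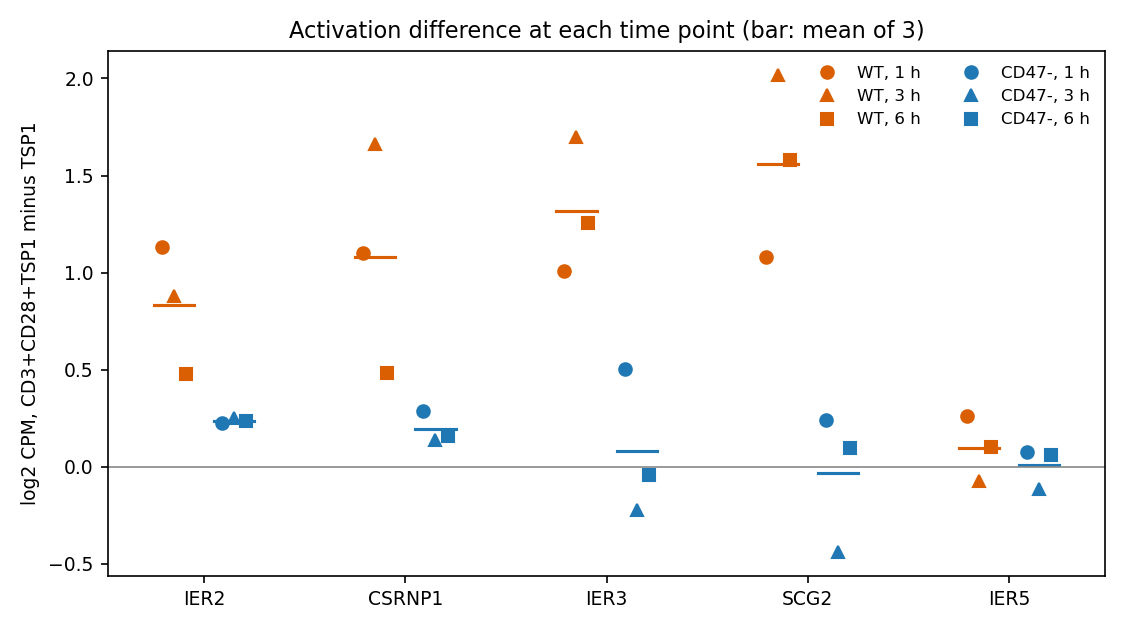
Log2 difference in CPM between CD3+CD28+TSP1 and TSP1 alone (vertical axis) for each gene at 1, 3 and 6 h (symbols) in WT and CD47- cells (colors), with a bar at the mean of the 3 times. The WT means of IER2, CSRNP1, IER3 and SCG2 lie between 0.83 and 1.56 and the CD47- means between -0.03 and 0.24, while IER5 is near 0 in both lines.

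Fitted in 1 edgeR model of all 20 libraries, the activation difference in WT cells was 0.85 (SE 0.17) for IER2, 1.11 (SE 0.17) for CSRNP1, 1.31 (SE 0.24) for IER3, 1.68 (SE 0.21) for SCG2 and 0.10 (SE 0.08) for IER5. In CD47- cells it was 0.24 for IER2, 0.20 for CSRNP1, 0.10 for IER3, -0.03 for SCG2 and 0.01 for IER5. With single libraries left out the CD47- values of the last 3 changed sign, with ranges of -0.13 to 0.34 for IER3, -0.15 to 0.19 for SCG2 and -0.045 to 0.092 for IER5. The CD47- value of IER2 ranged from 0.13 to 0.34 and the WT value of IER5 from 0.0085 to 0.19. The difference between the lines in this response was -1.71 (SE 0.29) for SCG2, -1.21 (SE 0.34) for IER3, -0.91 (SE 0.24) for CSRNP1, -0.61 (SE 0.24) for IER2 and -0.09 (SE 0.11) for IER5. Against untreated cells at 1 h, which were 1 library per line, the fitted level of CD3+CD28 in WT cells was higher by 1.10 for IER2, 1.10 for CSRNP1, 1.184 for IER3, 0.95 for SCG2 and 0.31 for IER5, and in CD47- cells the 5 values lay between -0.08 and 0.14.

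A list of 30 other immediate-early genes gave a view of the class, and 27 of them were tested. For CD3+CD28+TSP1 against TSP1 alone in WT cells, edgeR called 6 of the 27 genes higher and 0 lower (quasi-likelihood test, Benjamini-Hochberg adjustment), where 0.0919% of all tested genes, 15 genes, were called higher and 0% lower. Of all genes, 816 had an unadjusted p under 0.05 in this contrast, DESeq2 called 53 genes and limma voom 28, and with each library left out in turn edgeR called 0 to 42. The 4 with the smallest p were FOS, a subunit of AP-1, at a log2 fold change of 1.39 (SE 0.17 and adjusted p = 0.0143), EGR1 at 2.03 (SE 0.28, adjusted p = 0.0184), the phosphatase gene DUSP2 at 1.91 (SE 0.28, adjusted p = 0.0184) and EGR2 at 2.00 (SE 0.33, adjusted p = 0.0417). The median over the 27 genes was 0.52, against 0.00 over all tested genes. In CD47- cells 0 of the 27 were called, the median was 0.18, and 0% of all tested genes were called higher or lower, with 2636 at an unadjusted p under 0.05, 0 called by DESeq2 and 0 by limma voom. The difference between the lines in this response, tested as an interaction, was called for 0 of the 16327 genes by edgeR, with 1048 at an unadjusted p under 0.05, for 4 by DESeq2 and for 0 by limma voom, and for 9 by edgeR, all lower, without WT TSP1 at 6 h. Without the low-count filter edgeR called 538 of 41107 genes in CD47- cells and 255 for the difference between the lines.

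The count of 6 in WT cells rested on single libraries. It was 0 without any 1 of WT CD3+CD28+TSP1 at 1 h, 3 h or 6 h or WT TSP1 at 1 h. It was 3 without any 1 of WT CD3+CD28 at 1 h, WT TSP1 at 3 h, or the CD47- libraries of CD3+CD28 at 1, 3 or 6 h, CD3+CD28+TSP1 at 1 or 6 h, or TSP1 at 1 or 6 h. IER2, CSRNP1, IER3 and SCG2 had fitted differences of the same direction as FOS, EGR1, DUSP2 and EGR2.

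**Figure D4:**
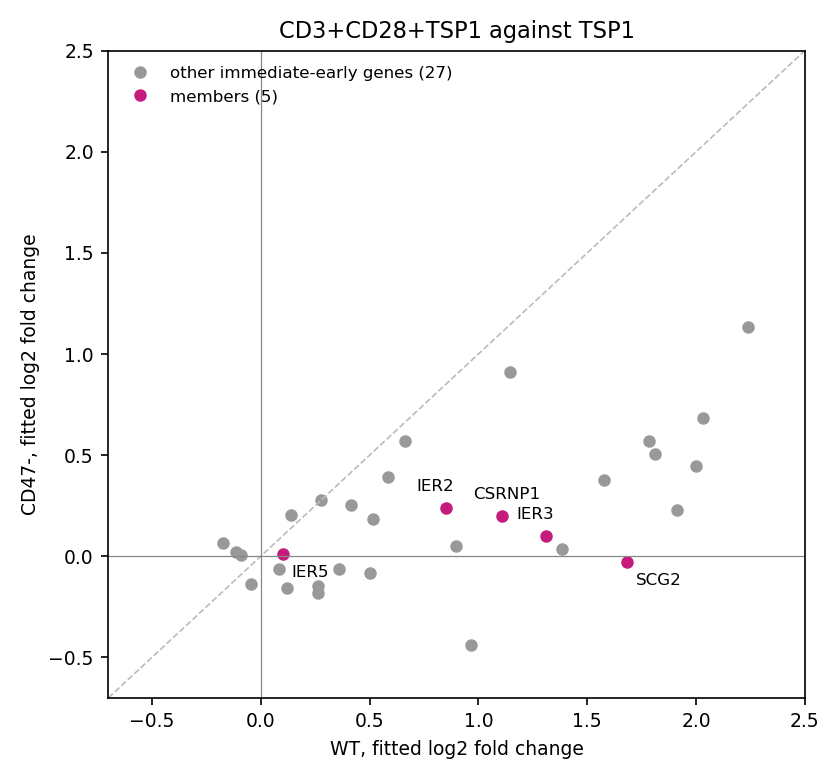
Fitted log2 fold change of CD3+CD28+TSP1 against TSP1 alone in CD47- cells (vertical axis) and WT cells (horizontal axis) for the 5 genes and the 27 other immediate-early genes tested, with a dashed line at equal change. IER2, CSRNP1, IER3 and SCG2 lie at 0.85 to 1.68 in WT cells and at -0.03 to 0.24 in CD47- cells, below the line.

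With time, the levels at 6 h against 1 h in WT cells differed by a fitted log2 fold change of -2.91 for CSRNP1, -1.89 for IER3, -1.78 for IER2, -0.59 for IER5 and 0.17 for SCG2. In CD47- cells the values were -0.78 for CSRNP1, -1.13 for IER3, -0.96 for IER2, -0.19 for IER5 and 0.66 for SCG2. CSRNP1 stood out in WT cells, where its 3 matched differences ranged from -3.15 to -2.43, against -0.82 to -0.67 in CD47- cells. At 3 h against 1 h, SCG2 differed by 2.403 in WT and 0.95 in CD47- cells, IER3 by 0.60 and 0.27, IER2 by -0.996 and -0.11, CSRNP1 by -0.72 and -0.15, and IER5 by -0.37 and -0.34. Single libraries moved several of these: with each left out in turn, the WT value of IER3 lay between 0.18 and 0.91 and its CD47- value between 0.036 and 0.51, CSRNP1 in WT cells ranged from -0.88 to -0.47, and in CD47- cells IER2 from -0.33 to 0.0032 and CSRNP1 from -0.26 to -0.057. The lowest of each came without the CD3+CD28 library at 3 h, and the highest without TSP1 at 3 h in WT and without CD3+CD28+TSP1 at 3 h in CD47- cells.

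A change of level with time was common among all genes. At 3 h against 1 h, 16.9% of tested genes were called higher and 17.4% lower in WT cells, and 18% and 20.1% in CD47- cells. In WT cells 25.7% of tested genes were called higher and 24.8% lower at 6 h, and in CD47- cells 26% and 27%. Of the 27 other immediate-early genes, edgeR called 2 higher and 24 lower in WT cells, with a median of -1.97, and 3 higher and 16 lower in CD47- cells, with a median of -0.83. In WT cells the 4 with the smallest p were ATF3 at -3.20 (adjusted p = 7.8e-10), FOSB at -4.07 (adjusted p = 1.4e-09), PPP1R15A at -1.83 (adjusted p = 2.7e-09) and FOS at -3.27 (adjusted p = 8.6e-09). In CD47- cells they were BTG2 at -1.28 (adjusted p = 1.9e-07), KLF10 at -2.78 (adjusted p = 2.1e-07), PPP1R15A at -1.001 (adjusted p = 2.5e-07) and EGR1 at -3.75 (adjusted p = 3.0e-07). The fitted values of SCG2 were above 0 in both lines, but the WT value turned to -0.11 without WT CD3+CD28+TSP1 at 1 h, and its 3 matched differences in WT cells ranged from -0.41 to 0.66.

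Between the lines, edgeR called 4 of the 27 genes higher and 8 lower in CD47- cells, with a median of -0.34, where 19.8% of all tested genes were called higher and 20.6% lower. With the block for matched pairs 16 of the 27 were called in either direction, against 54.9% of all tested genes, and by limma voom 6 of the 27 and 6855 of the 16327 genes. The 4 with the smallest p were the Krüppel-like factors KLF4 at 1.82 (adjusted p = 1.4e-07) and KLF2 at 1.04 (adjusted p = 9.4e-07), BTG2 at -1.20 (adjusted p = 1.1e-04) and DUSP6 at 0.60 (adjusted p = 6.2e-04). IER5, at 1.10, was on the side of KLF4 and KLF2, and CSRNP1 and IER3 were on the side of BTG2.

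The effect of TSP1 on activated cells was not among the contrasts named in the choice of the 5 genes and was tested. Its libraries are, however, among those on which the genes were chosen. In WT cells, CD3+CD28+TSP1 against CD3+CD28 gave log2 fold changes of 0.27 (SE 0.24) for IER3, 0.23 (SE 0.17) for IER2, 0.11 (SE 0.20) for SCG2, 0.11 (SE 0.17) for CSRNP1 and 0.11 (SE 0.08) for IER5, and the edgeR adjusted p was 1 for each. None of the 5 genes and 0% of all tested genes were called, while 366 genes had an unadjusted p under 0.05, DESeq2 called 1 gene and limma voom 0. By time, the log2 differences at 1, 3 and 6 h were 0.73, -0.22 and 0.18 for IER2 and 0.42, -0.26 and 0.83 for IER3. The 3 WT values of CSRNP1 were 0.10, 0.07 and 0.20, all positive, and its fitted value of 0.11 was below its SE of 0.17.

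In CD47- cells the same test gave -0.36 (SE 0.24, adjusted p = 0.529) for IER3, -0.19 (SE 0.20, adjusted p = 0.693) for SCG2, -0.08 (SE 0.17, adjusted p = 0.863) for IER2, -0.08 (SE 0.08, adjusted p = 0.684) for IER5 and -0.01 (SE 0.17, adjusted p = 0.988) for CSRNP1 by edgeR. Again 0 of 5 genes and 0% of all tested genes were called, with 1771 genes at an unadjusted p under 0.05, 0 called by DESeq2 and 0 by limma voom. Without the low-count filter, edgeR called 0.976% of 41107 genes, IER3 among them at -0.37 (adjusted p = 0.0142). The values rested on the 3 h libraries, the shallow one of CD3+CD28+TSP1 and that of CD3+CD28, where IER3 was at 57.4 CPM against 111 CPM with CD3+CD28. Without the shallow library the log2 fold changes were -0.12 for IER3, 0.03 for SCG2, 0.03 for IER2, 0.00 for IER5 and 0.07 for CSRNP1. Without the CD3+CD28 library they were -0.13 for IER3, -0.07 for SCG2, 0.14 for IER2, -0.02 for IER5 and 0.10 for CSRNP1.

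**Figure D5:**
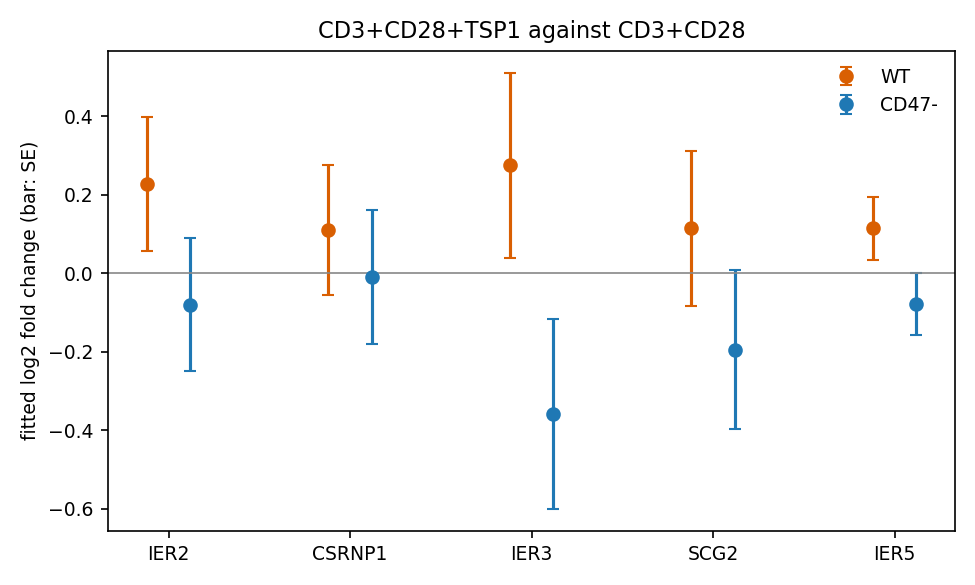
Fitted log2 fold change of CD3+CD28+TSP1 against CD3+CD28 (vertical axis, bars are the SE of the edgeR fit) for each gene in WT and CD47- cells. The 5 WT values lie between 0.11 and 0.27 and the 5 CD47- values between -0.36 and -0.01, and none passed the test.

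The 5 fitted values were positive in WT and negative in CD47- cells, but that of CSRNP1 in CD47- cells turned positive under 5 other settings. With single libraries left out, 4 of the 5 CD47- values turned positive (all but that of IER3), and the WT values of CSRNP1 and SCG2 turned negative. The difference between the lines in the TSP1 effect was -0.63 (SE 0.34) for IER3, -0.31 (SE 0.28) for SCG2, -0.31 (SE 0.24) for IER2, -0.19 (SE 0.11) for IER5 and -0.12 (SE 0.24) for CSRNP1, with edgeR adjusted p of 0.966 to 0.970. None was called, as 0% of all tested genes were, with 393 genes at an unadjusted p under 0.05, 0 called by DESeq2 and 0 by limma voom. Of the 27 other immediate-early genes, 0 were called in either line.

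TSP1 alone was compared with untreated cells, which were 1 library per line, so the spread came from the other libraries of the model. In WT cells the log2 fold change was 0.48 (SE 0.27) for IER2, 0.33 (SE 0.12) for IER5, 0.15 (SE 0.36) for IER3, 0.10 (SE 0.26) for CSRNP1 and -0.62 (SE 0.35) for SCG2, with edgeR adjusted p of 0.683 to 0.938. In CD47- cells it was -0.39 (SE 0.25) for IER2, -0.35 (SE 0.36) for IER3, -0.15 (SE 0.31) for SCG2, -0.13 (SE 0.12) for IER5 and -0.07 (SE 0.26) for CSRNP1, with adjusted p of 0.720 to 0.965. In each line 0% of all tested genes were called, with 1165 genes in WT and 1406 in CD47- cells at an unadjusted p under 0.05. DESeq2 called 1 and 2 genes, and limma voom 0 in both.

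The isoform table allowed a second readout. IER2 is annotated with a spliced transcript of 2 exons, IER2-201, and a single-exon transcript, IER2-203. IER2-201 held 84.5% ± 2.07 (SD, n = 10) of the IER2 counts in WT and 85.4% ± 3.31 in CD47- cells, a difference of 0.897 percentage points (SD of the pairs 4.02) with 6 of 10 pairs higher (2-sided exact sign-flip test, p = 0.49, adjusted p = 0.726). IER3-201, of 2 exons, held 90.0% ± 3.98 of the IER3 counts in WT and 90.5% ± 3.38 in CD47- cells, a difference of 0.523 points (SD 6.29) with 5 of 10 pairs higher (exact sign-flip test, p = 0.811, adjusted p = 0.916). Over 8825 genes tested in this way, 7.97% were called, and neither IER2 nor IER3 was among them.

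The single-exon form IER3-202 took a mean of 9.56%, 6.27% and 14.4% of IER3 counts in WT cells at 1, 3 and 6 h, and of 8.98%, 10.5% and 9.11% in CD47- cells. The WT order was thus the reverse of the order of the gene's level. CSRNP1 counts were on CSRNP1-201 at 99.3% or more in every library, and SCG2 counts on SCG2-201 at 99.0% or more. IER5 has 1 isoform.

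The genes were also compared with one another over the 20 libraries after each line was centred on its own mean, which makes Pearson's r a description of shared course, since all points share libraries and time. The lines were not scaled, so r weighs the WT course more. Each of the 5 genes had a larger ratio of highest to lowest library in WT than in CD47- cells. It ranged from 1.77 against 1.48 for IER5 to 15.6 against 2.62 for SCG2. CSRNP1 was closest to IER2 (r = 0.89) and IER3 (r = 0.85), IER2 and IER3 had r = 0.78, and IER2 and IER5 r = 0.76. SCG2 followed IER3 at r = 0.61 but IER2 at only 0.07 and IER5 at -0.20. The 5 genes thus did not share 1 course.

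Among 13093 genes, those closest to CSRNP1 were FOS (r = 0.97), NR4A1 (r = 0.97), the orphan nuclear receptor, and GPR3 (r = 0.96). Closest to IER2 were the zinc finger factor EGR4 (r = 0.97), ING1 (r = 0.95) and HEXIM1 (r = 0.95). Closest to IER3 were the semaphorin gene SEMA7A (r = 0.95), FLOT1 (r = 0.95) and the noncoding RNA GASAL1 (r = 0.94). The annotated start of FLOT1 lies 466 bases beyond the end of IER3 on the same strand, and its level was 28.8 to 63.7 CPM in WT and 52.9 to 84.0 CPM in CD47- cells. Closest to SCG2 were the prion protein gene PRNP (r = 0.96), SHC4 (r = 0.93) and RDH10 (r = 0.92), and closest to IER5 were the ribosomal protein gene RPL13A (r = 0.94), the inducible heat shock gene HSPA6 (r = 0.92) and SLC43A1 (r = 0.91).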

How the data were processed

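Paired reads had been trimmed by the authors (Cutadapt 1.18), aligned to GRCh38 (STAR 2.4.2a, 2-pass mode) and quantified by RSEM 1.3.3 with GENCODE version 36. The deposited values are expected counts, not normalized, for 60719 genes and 232184 isoforms. Both tables carry 2 further columns, of no sample in the study, which were left out. The study's ComBat step was not repeated, because the batch is not named in the sources used here, and its quantile normalization was used only as an alternative.

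Expected counts were rounded for edgeR 4.0.16 (R 4.3.3), filtered by filterByExpr (minimum count 10, minimum total 15) and scaled by TMM factors. Quasi-likelihood tests with Benjamini-Hochberg adjustment over all 16327 genes used a threshold of 0.05. The lines were compared over all 20 libraries. Treatments and times were fitted in 1 model holding every combination of line and treatment, with 3 and 6 h terms per line, and line differences were interactions in it. Matched differences used log2 CPM with a pseudocount of 0.5. Isoform shares were tested over 10 matched pairs by an exact sign-flip test of 1024 sign patterns, whose smallest p is 0.00195. Only the most abundant isoform of each gene was tested. A gene needed at least 20 counts in every library and more than 1 isoform with a pooled share of at least 5%. Nothing states that libraries came from separate cultures, so p-values measure the spread between these libraries. The edgeR test of TSP1 on activated WT cells was also run on counts simulated from its own fit.

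The 5 genes, the gene lists, the tests and the alternatives were chosen with earlier results of these data known. Named genes were the 5 genes, at most 4 genes of a list per comparison with the smallest p, and for each of the 5 the 3 genes of mean log2 CPM of at least 1 with the highest r. Alternatives were DESeq2 1.42.0, limma voom (limma 3.58.1) with quantile normalization, upper-quartile factors, other filters, other time terms, the libraries of 1 line alone, a block for matched pairs, other pseudocounts and each library left out in turn. Promoter sequences came from RefSeq (GRCh38.p14) and positions from GENCODE version 44.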

Additional observations from a re-analysis of the deposited data

How the results depend on the processing

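Every condition had 1 library, so no fit had replicates of a condition. Without the low-count filter, edgeR called, of 41107 genes, 84 for TSP1 on activated WT cells, 401 in CD47- cells, 140 for the line difference, and 250 (WT) and 540 (CD47-) for TSP1 alone, and IER3 was called in CD47- cells at -0.37 (adjusted p = 0.0142, against 0.505 to 1 under the other settings that kept all libraries); the cause was not tested. DESeq2 called 1, 1 and 2 genes for TSP1 on activated WT cells and for TSP1 alone in WT and CD47- cells, and a fit of WT libraries alone called 11 for TSP1 alone.

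Of the 27 other immediate-early genes, the activation count in WT cells (6) was 14 without a filter (where 201 of 41107 genes were called in all), 3 with 1 CPM in every library (11 of 12251), 1 with a shared time effect (2 of 16327) and 2 with 1 line alone (5 of 14164), and the count in CD47- cells (0) was 6 without a filter (538 of 41107). The line count (12) was 6 by limma voom (6855 of 16327). The cause was not tested.

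CSRNP1 for TSP1 on activated CD47- cells turned from -0.01 to 0.0048 (limma voom), 0.018 (upper-quartile factors), 0.0047 (1 CPM filter), 0.0060 (shared time effect) and 0.0032 (1 line alone). With each library left out in turn, TSP1 on activated cells ranged in WT from 0.010 to 0.48 for IER2, 0.026 to 0.72 for IER3, 0.021 to 0.20 for IER5, -0.044 to 0.28 for CSRNP1 and -0.16 to 0.31 for SCG2, and in CD47- cells from -0.20 to 0.14 for IER2, -0.59 to -0.12 for IER3, -0.14 to 0.0014 for IER5, -0.082 to 0.10 for CSRNP1 and -0.32 to 0.025 for SCG2. Genes called ranged from 0 to 1 for TSP1 on activated CD47- cells and for the line difference (1 without WT CD3+CD28 at 3 h), from 0 to 79 for TSP1 alone in WT cells (79 without CD47- CD3+CD28+TSP1 at 3 h), and from 0 to 8 for the activation list in WT cells. The isoform share of IER3 ranged from -0.926 to 1.58 points. The block for matched pairs gave 16 called genes of the list between the lines, where it called 54.9% of all tested genes.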

Other observations

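Relatives of the 5 genes were examined as a list of 8, of which 5 were tested. IER5L, the paralog of IER5, was higher in CD47- cells by a log2 fold change of 1.45 (SE 0.26 and adjusted p = 1.2e-04 by edgeR), the only 1 of the 5 called between the lines, where 19.8% of all tested genes were called higher and 20.6% lower and IER5 itself differed by 1.10. At 3 h against 1 h, edgeR called 3 of the 5 relatives higher in each line and 0 lower, where 16.9% of all tested genes were called higher in WT and 18% in CD47- cells. At 6 h against 1 h it called 1 higher and 2 lower in WT and 2 higher and 0 lower in CD47- cells. Of all tested genes, 25.7% were called higher and 24.8% lower in WT cells over those hours, and 26% and 27% in CD47- cells. IER5L rose at 3 h in CD47- cells (1.34, adjusted p = 0.0050), and CSRNP2, the paralog of CSRNP1, rose at 3 h in WT (0.35, adjusted p = 5.2e-04) and CD47- cells (0.55, adjusted p = 1.9e-05). The granin relative VGF, another precursor of secreted peptides, rose at 3 h against 1 h by 2.41 in WT (adjusted p = 3.1e-04) and 2.25 in CD47- cells (adjusted p = 0.0011), and CHGB rose by 1.39 in WT cells (adjusted p = 9.1e-04). SCG2 differed over the same hours by 2.403 in WT and 0.95 in CD47- cells. For activation, 0 of the 5 relatives were called in either line, with VGF at 1.69 (adjusted p = 0.296) in WT and 1.52 (adjusted p = 0.283) in CD47- cells. Of all tested genes, 0.0919% were called higher for activation in WT cells and 0% in CD47- cells.

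Of 8 heat shock genes, edgeR called 4 higher and 1 lower in CD47- cells, against 19.8% and 20.6% of all tested genes. BAG3 was higher by 0.74 (adjusted p = 3.5e-06), the chaperone gene HSPH1 by 0.41 (adjusted p = 8.1e-04) and DNAJB1 by 0.98 (adjusted p = 0.0020), while HSPA1B was lower by a log2 fold change of -1.45 (adjusted p = 3.1e-05). HSPA1A and HSPA1B are near-identical copies, so their split of reads is uncertain. Of 9 transcription factor genes of the SRF, TCF and CREB groups, 0 were called higher and 3 lower in CD47- cells, against the same shares of all genes, namely ELK1 at -0.59 (adjusted p = 9.8e-05), ELK3 at -0.82 (adjusted p = 5.3e-04) and CREM at -0.51 (adjusted p = 0.0011). For activation, 0 of the 9 were called in either line, with SRF at 0.22 (adjusted p = 0.529) in WT and 0.13 (adjusted p = 0.325) in CD47- cells. The share of all tested genes called higher for activation was 0.0919% in WT and 0% in CD47- cells.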
